A study of Mus musculus with 8 samples.

Results

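The regions described here are the differentially methylated regions of mouse hippocampus that appear in both single-knockout comparisons, so that loss of Mutyh can be set against loss of Ogg1 in the same stretch of DNA. A region is a member when the same location, gene and feature stands in the table of Mutyh-/- against wild type (WT) and in the table of Ogg1-/- against WT for one cytosine context. This gave 501 CG regions and 752 CHH regions, 1253 of the 9329 region entries in all tables of the series. The 501 CG regions are 29.5% of the 1701 called in Mutyh-/- and 34.8% of the 1440 called in Ogg1-/-. The 752 CHH regions are 48.4% of 1555 in Mutyh-/- and 37.2% of 2021 in Ogg1-/-.

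Genomic DNA of whole hippocampus was bisulfite sequenced from male C57BL/6N mice killed at 6 months of age, in 4 genotypes with 2 libraries each. The groups used here were Mutyh-/-, Ogg1-/- and WT. The sources name no tissue-specific driver for either knockout and no agent given to the mice, and whole hippocampus pools neurons with glia and vessel cells. The labels number the libraries but do not say that they come from separate animals, so the spread between the 2 libraries of a genotype may be technical.

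Ogg1 and Mutyh are DNA glycosylases of base excision repair that act on the same lesion, 8-oxoguanine. Ogg1 cuts out 8-oxoguanine paired with cytosine, and Mutyh cuts out adenine that was built in opposite 8-oxoguanine. Methyl groups on cytosine sit mostly in CG pairs, where they are high along gene bodies and low at active promoters, and neurons also carry methylation outside CG, which includes CHH sites (H is any base but G).

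The level of a library is the median methylation of the cytosines kept in the region, in percent, taken as the mean of its values in the 2 pairs with WT libraries. The tables hold called regions only. The authors predicted regions with a Wilcoxon rank-sum test in each library pair and kept those common to all 4 pairs. A called region also had a relative ratio of knockout to WT past 0.1 in size, with 1 sign in all 4 library pairs. The members were thus chosen by their levels in each knockout against WT, and the direction against WT is given below as a description. The ratio was recomputed on the deposited score, read as 1 plus the methylated fraction, so it is not a ratio of the percent levels. On that score members lay close to the limit. Their weakest pair had a median relative ratio of 0.105 in size in both CG tables, and the lowest, recomputed from rounded medians, was 0.0966 in CG and 0.0930 in CHH. Regions just outside the limit were not analysed here. The comparison of the knockouts with each other was not used to choose members. Read depth per region is unknown, and tables of called regions cannot be used to check the tissue by marker genes. The Mutyh gene body was called in Mutyh-/- only and the Ogg1 TES in Ogg1-/- only, so neither is a member.

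A set of 5 start-site sequences is shown first, because the TSS (transcription start site) regions are the members placed at gene starts, and these come back in the results that follow. A TSS region spans 1 kb on each side of the start. Nyap2 is the only TSS region called in opposite directions, and was picked after its values were seen. Pomc and Krtdap lead the TSS regions with higher and with lower levels in Mutyh-/- than in Ogg1-/- without overlap, Brs3 has the largest gain in both knockouts, and Xrcc1 is the only base excision repair gene among the members. Each run is the 250 bases before the centre of the region, 5′ to 3′ on the gene's strand in GRCm38, with CG sites in capitals, which read the same on both strands. The centre is an annotated GENCODE transcript start in each of these but Pomc.
Nyap2 (chr1:81077067-81077316, plus strand): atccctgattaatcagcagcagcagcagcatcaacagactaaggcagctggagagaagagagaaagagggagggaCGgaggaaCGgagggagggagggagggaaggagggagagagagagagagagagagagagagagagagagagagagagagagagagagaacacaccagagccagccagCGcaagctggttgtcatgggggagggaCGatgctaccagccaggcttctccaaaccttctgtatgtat
Pomc (chr12:3954695-3954944, plus strand): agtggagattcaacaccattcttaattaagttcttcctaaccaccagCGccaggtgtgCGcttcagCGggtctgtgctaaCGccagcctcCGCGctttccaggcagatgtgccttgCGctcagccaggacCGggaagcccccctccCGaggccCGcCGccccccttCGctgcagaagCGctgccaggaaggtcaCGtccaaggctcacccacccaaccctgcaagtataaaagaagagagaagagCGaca
Krtdap (chr7:30787655-30787904, plus strand): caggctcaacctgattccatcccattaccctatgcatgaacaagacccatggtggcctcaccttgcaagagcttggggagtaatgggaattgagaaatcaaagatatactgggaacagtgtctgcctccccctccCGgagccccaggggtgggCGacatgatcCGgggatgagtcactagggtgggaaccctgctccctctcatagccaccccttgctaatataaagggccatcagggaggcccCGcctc
Brs3 (chrX:57042824-57043073, plus strand): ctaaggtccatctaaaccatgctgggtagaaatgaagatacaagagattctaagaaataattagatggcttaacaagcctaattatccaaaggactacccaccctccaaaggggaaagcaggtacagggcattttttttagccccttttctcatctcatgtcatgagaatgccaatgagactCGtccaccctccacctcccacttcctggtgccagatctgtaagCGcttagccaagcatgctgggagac
Xrcc1 (chr7:24546900-24547149, plus strand): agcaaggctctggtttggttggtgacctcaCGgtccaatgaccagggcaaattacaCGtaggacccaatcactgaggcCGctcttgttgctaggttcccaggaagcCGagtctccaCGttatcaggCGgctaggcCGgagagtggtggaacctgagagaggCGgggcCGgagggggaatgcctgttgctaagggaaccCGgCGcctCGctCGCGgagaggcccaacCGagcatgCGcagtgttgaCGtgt
The windows hold 4, 15, 4, 2 and 17 CG sites in the order printed. Of 32851 RefSeq promoters on GRCm38, 92.1% hold at least 1 CG in the same 250 bases, with a median of 6 and quartiles of 2 and 16. Xrcc1 therefore sits above the upper quartile and Brs3 at the lower one. Over the whole 2000 base regions, the 46 TSS regions with losses in both knockouts held a median of 76.5 CG sites (22 to 171) and the 6 with gains a median of 41 (26 to 132).

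Both knockouts moved the same way against WT in nearly all shared regions. Both were compared with the same 2 WT libraries. In CG, 301 regions were hypermethylated in both, 186 were hypomethylated in both and 14 were called in opposite directions. Gene bodies held 294 of the 301 gains and 108 of the losses, while the TSS held 46 losses and 6 gains and the transcription end site (TES) 32 losses and 1 gain. Gained regions were long, with a median of 395258 bp, against 4724 bp for lost ones, which include the TSS and TES regions of fixed 2000 bp. Among gene bodies alone the medians were 403304 bp for gains and 19626 bp for losses. In CHH, 748 regions were hypomethylated in both, 1 was hypermethylated in both and 3 were called in opposite directions, and 725 of the losses lay in gene bodies. Among all called CHH regions, 1548 of 1555 in Mutyh-/- and 2017 of 2021 in Ogg1-/- were losses, so agreement in CHH was nearly fixed. Among all called CG regions, 593 of 1701 in Mutyh-/- and 597 of 1440 in Ogg1-/- were gains. Entries that repeated the values of an earlier one under another transcript or gene numbered 36 in CG and 50 in CHH.

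No shared region passed the test between Mutyh-/- and Ogg1-/-. limma with Benjamini-Hochberg adjustment called 0 of 487 CG regions at an adjusted p under 0.05 (0% called) and 0 of 749 CHH regions (0% called). At an unadjusted limma p under 0.05 there were 32 CG and 28 CHH regions, and the smallest adjusted p was 0.748 in CG and 0.948 in CHH. The 95% interval of a difference reached a median of 10.8 percentage points to either side in CG and 7.5 in CHH. These are typical widths and no limit for a single region. An exact permutation test of a single region cannot go below p = 0.333 in this design.

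CG regions gained in both had median levels of 85.2% in Mutyh-/- and 83.8% in Ogg1-/-, against 63% and 62.8% in WT in the 2 tables. CG regions lost in both had medians of 47.2% in Mutyh-/- and 47.8% in Ogg1-/-, against 69% and 68.8% in WT. The median difference Mutyh-/- minus Ogg1-/- was 0.75 points over the CG gains and -0.25 points over the CG losses. Regions went both ways, and a single CG region differed by a median of 3.5 points in size, beside a median SD between libraries of 3.54 points in Mutyh-/- and 3.18 in Ogg1-/-. For CHH losses the medians were 24.2% in Mutyh-/- and 23.2% in Ogg1-/-, and the median difference was 1.0 point. A single CHH region differed by a median of 2.25 points in size, beside SDs of 2.83 points in Mutyh-/- and 2.12 in Ogg1-/-.

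**Figure D1:**
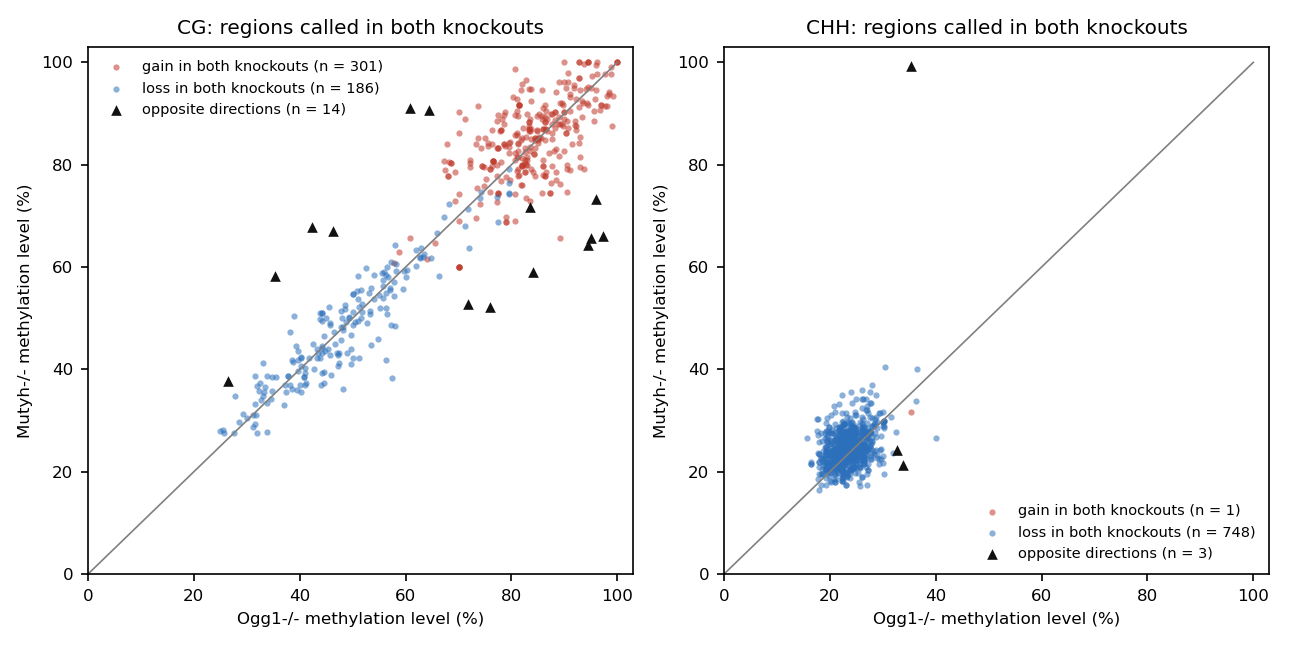
Mean methylation level of each shared region in Mutyh-/- (y axis, percent) against Ogg1-/- (x axis, percent), for CG (left) and CHH (right). Points are regions, colours give the direction against WT, triangles are regions called in opposite directions and the line marks equal levels. The 487 CG regions called in 1 direction follow the line (r = 0.96), and the 749 CHH regions cluster near it with a weak relation (r = 0.37). The 14 CG and 3 CHH triangles lie off it.

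The same WT libraries stand in both tables, which gives a check on how far a level moves with no change of library. A WT library did not keep its level from one table to the other. What moved it was not tested. In CG regions called in 1 direction the WT mean differed between the tables by a median of 3.25 points in size, beside a median of 3.5 points between the knockouts. In CHH the WT shift had a median of 3.5 points in size, beside 2.25 points between the knockouts. The knockout difference followed the WT shift across regions, with r = 0.87 over 487 CG regions and r = 0.71 over 749 CHH regions. These points share libraries and tables. The knockout difference is the WT shift plus the difference between the 2 changes from WT. Members were chosen by those changes, which ties the knockout difference to the WT shift. Their agreement, in size and in sign, is a description and no test. Among regions called in 1 direction, all 54 CG and all 14 CHH regions with a knockout difference over 10 points had a WT shift of the same sign.

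**Figure D2:**
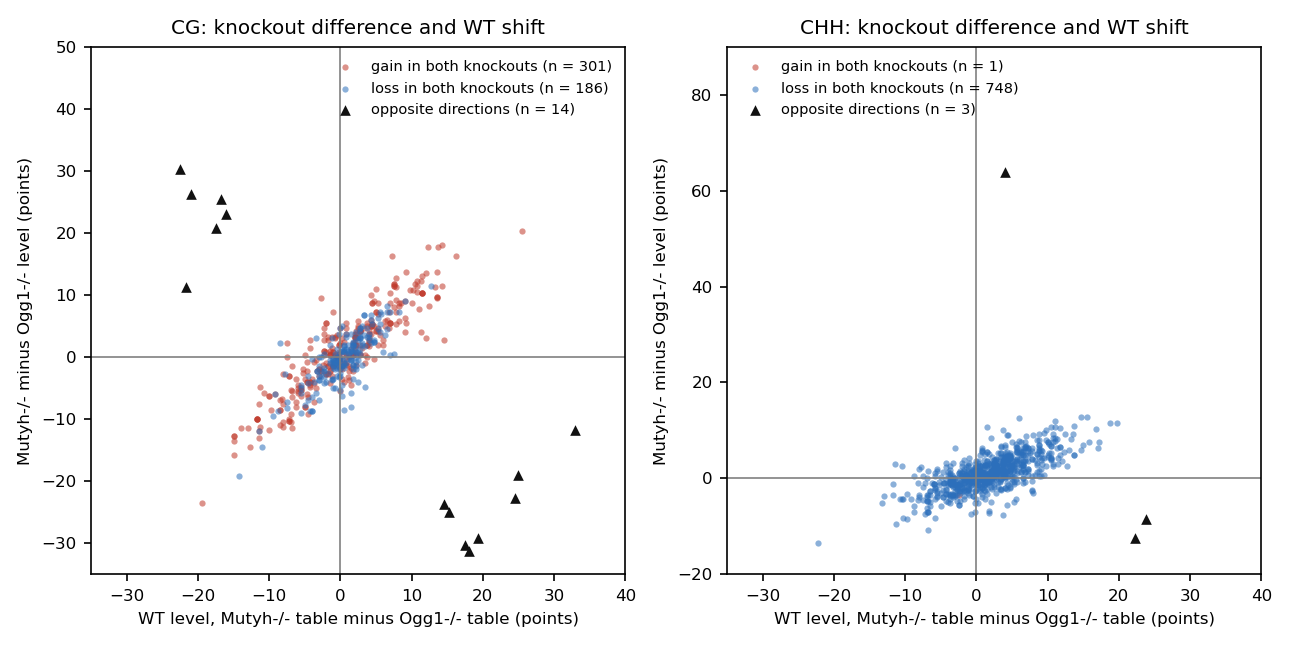
Difference between the knockouts, Mutyh-/- minus Ogg1-/- (y axis, percentage points), against the shift of the same WT libraries, Mutyh-/- table minus Ogg1-/- table (x axis, percentage points), for CG (left) and CHH (right). Points are shared regions. Regions called in 1 direction run along a rising diagonal, the 14 CG regions called in opposite directions lie in the other 2 corners, and Iqsec3 stands alone in CHH with a difference of 64 points at a WT shift of 4.0.

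Counting regions in which both libraries of one knockout lay beyond both of the other gave 89 CG regions with Mutyh-/- above (18.3% of 487) and 85 with Mutyh-/- below (17.5%). In CHH there were 161 above (21.5% of 749) and 58 below (7.74%). In an alternative added after seeing the data, with the WT mean of the same pairs taken off each level, the counts were 41 above and 33 below in CG and 86 above and 146 below in CHH. The CHH excess of regions higher in Mutyh-/- thus turned round, as did the CHH median difference, at -0.5 points. The WT shift itself had a median of 1.75 points in CHH and 0.5 in CG. Among regions whose WT mean differed by at most 2 points between the tables, a subset chosen after seeing the data, differences ran between -8.5 and 7.25 points in 175 CG regions, with 9 above and 18 below, and between -7.5 and 10.8 points in 235 CHH regions, with 14 above and 9 below.

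Gene bodies with CG gains in both knockouts held the widest differences, with 50 over 10 points in size. Grm5 and Pcdh19 were the widest each way. Ppp3ca and Syn2, which follow them, were named through the lists of plasticity and of synaptic scaffold genes and not by rank. Tmem132d, outside those lists, differed by -15.75 points. Grm5, a metabotropic glutamate receptor of hippocampal synapses (chr7:87585168-88134063), had 93.5% and 87% in Mutyh-/- and 72.5% and 67.5% in Ogg1-/-. The groups did not overlap and differed by 20.2 points (SE 3.85, limma adjusted p = 0.748). WT had 74% and 64% in the Mutyh-/- table and 43% and 44% in the Ogg1-/- table, a shift of 25.5 points. Taken from its own WT values, the gain was therefore 5.25 points smaller in Mutyh-/- than in Ogg1-/- (difference of changes -5.25).

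Pcdh19, an X-linked adhesion protein of neurons (chrX:133583861-133687993), had 84% and 47.5% in Mutyh-/- and 90.5% and 88% in Ogg1-/-. The Mutyh-/- libraries had an SD of 25.8 points, so the difference of -23.50 points had an interval of -61 to 14, with a WT shift of -19.50.

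Ppp3ca, the catalytic subunit of the phosphatase calcineurin (chr3:136671066-136936727), had 84% and 77.5% in Mutyh-/- and 70.5% and 64% in Ogg1-/-. Its difference of 13.5 points stood beside a WT shift of 12. Syn2, a synapsin that tethers synaptic vesicles (chr6:115135902-115275563), had 82% and 78.5% in Mutyh-/- and 71% and 66% in Ogg1-/-. Its difference was 11.8 points, the WT shift 7.5 points and the difference of changes 4.25 points.

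Fgf13, an intracellular fibroblast growth factor homologue on the X chromosome (chrX:59063146-59584572), had the largest mean gain from WT over both knockouts among gene bodies. It is also a gene body in which the knockouts and the WT check went different ways. Levels were 93% and 88% in Mutyh-/- and 81.5% and 80.5% in Ogg1-/-, a difference of 9.5 points (95% interval 0.838 to 18.2, limma adjusted p = 0.748). WT had 62.5% and 40% in the Mutyh-/- table and 71% and 37% in the Ogg1-/- table, a shift of -2.75 points. The difference of changes, 12.2 points, was the largest positive one of the 487 CG regions, and the WT libraries differed from each other by more than the knockouts did.

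**Figure D3:**
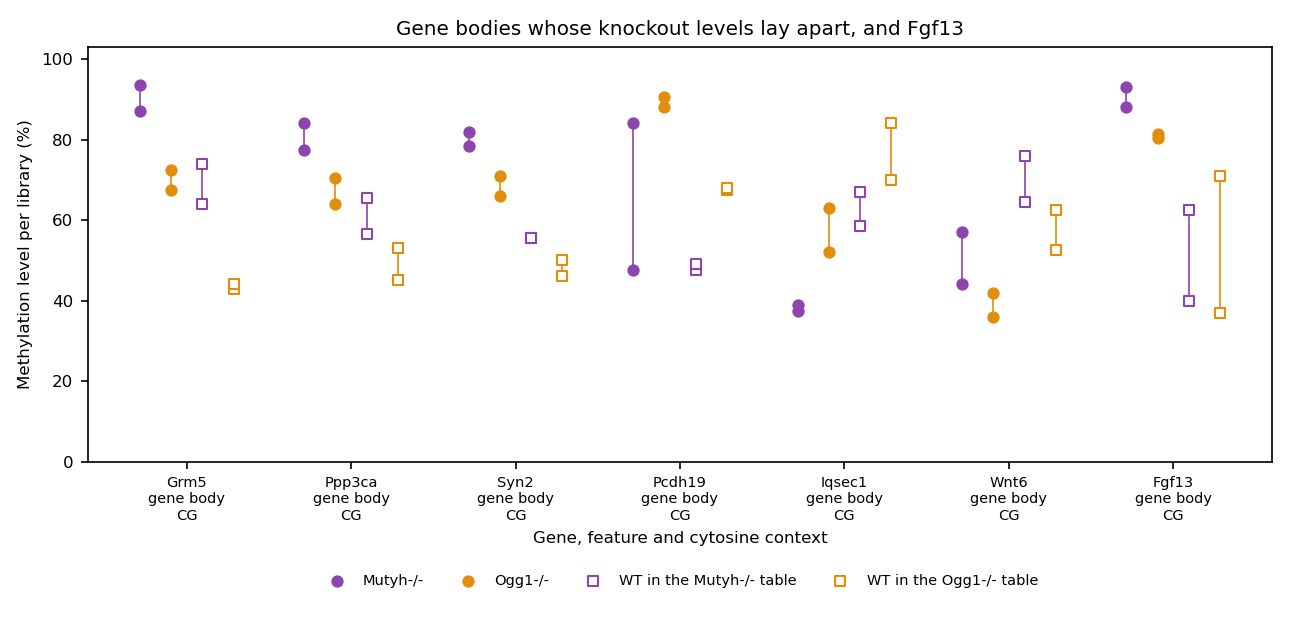
Methylation level per library (y axis, percent) in 7 CG gene bodies, with the 2 libraries of a group joined by a line. Filled circles are Mutyh-/- (purple) and Ogg1-/- (orange), and open squares are the same 2 WT libraries as they stand in the Mutyh-/- table (purple) and the Ogg1-/- table (orange). In Grm5, Ppp3ca, Pcdh19 and Iqsec1 the WT squares part in the same direction as the knockout circles, and in Fgf13 they do not.

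CG losses in gene bodies were closer together between the knockouts, and so were the WT values between the tables. The knockout difference had a median of 2.25 points in size, against 4.5 in gained gene bodies. For the WT shift the medians were 1.875 and 4.5 points. Iqsec1, an exchange factor for the small GTPase Arf6 at synapses (chr6:90660598-90715529), had 39% and 37.5% in Mutyh-/- and 52% and 63% in Ogg1-/-. The difference was -19.25 points (SE 4.69, limma adjusted p = 0.748) beside a WT shift of -14.25. Wnt6, a secreted Wnt ligand (chr1:74772892-74784319), had 57% and 44% in Mutyh-/- and 36% and 42% in Ogg1-/-, with a WT shift of 12.8 points. In both genes the groups lay apart on the deposited scale, and the difference of changes was -5.0 points in Iqsec1 and -1.25 in Wnt6. Over all 108 lost gene bodies the differences ran between -19.25 and 11.5 points with a median of 0.25.

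At the TSS all 52 regions called in 1 direction lay within 9 points. Pomc, the precursor of melanocortin peptides, had 46.5% and 55.5% in Mutyh-/- and 43% and 44.5% in Ogg1-/-, a difference of 7.25 points beside a WT shift of 6.5. Krtdap, a protein of differentiating keratinocytes, had 43% and 46.5% in Mutyh-/- and 55.5% and 51.5% in Ogg1-/-. Its difference of -8.75 points equalled its WT shift of -8.75, so that the difference of changes was 0.0. Neither passed the test (limma adjusted p = 0.803 for Pomc and 0.748 for Krtdap).

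Rptoros, a transcript on the strand opposite Rptor (chr11:119833366-119835365), was a TSS region in which WT held still. It had 53.5% and 44% in Mutyh-/- and 59.5% and 55% in Ogg1-/-, a difference of -8.5 points with a WT shift of 0.5 and a limma adjusted p of 0.803. Usp35, a deubiquitinase (chr7:97324965-97326964), had 52% and 53% in Mutyh-/- and 50% and 47% in Ogg1-/-. Both TSS pairs were free of overlap, but their limma intervals included 0.

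Xrcc1, the scaffold that brings ligase to single-strand breaks, lost CG methylation at its TSS in both knockouts. It had 32.5% and 49% in Mutyh-/- and 30.5% and 50% in Ogg1-/-, against 65.5% and 73.5% in WT in the Mutyh-/- table and 63.5% and 60.5% in the Ogg1-/- table. The knockouts overlapped and differed by 0.5 points, and by -7.0 points after subtraction of WT. The interval of the 0.5 points was wide, at -26.1 to 27.1, since the 2 libraries of each genotype stood far apart. The remaining 25 genes of the base excision repair list, Mutyh and Ogg1 among them, had no shared region in CG. Brs3, an orphan bombesin receptor on the X chromosome, gained at its TSS, with 84.5% and 89.5% in Mutyh-/- and 82% and 84.5% in Ogg1-/-, against 65% and 58%, then 62.5% and 56.5%, in WT in the 2 tables. Chst3, a chondroitin sulfotransferase (chr10:60218261-60220260), had the largest mean TSS loss outside predicted and RIKEN genes, with 38.5% and 35.5% in Mutyh-/- and 50% and 38% in Ogg1-/-.

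At the TES 10 of 33 regions called in 1 direction lay lower in Mutyh-/- without overlap and 3 lay higher, where 17.5% and 18.3% of all 487 CG regions did. Over all CG regions subtraction of WT took the counts to 41 above and 33 below, against 89 and 85 as deposited. Hpd, an enzyme of tyrosine breakdown (chr5:123170807-123172806), had 40.5% and 44% in Mutyh-/- and 50% and 52.5% in Ogg1-/-. The difference was -9.0 points (95% interval -17.2 to -0.788, limma adjusted p = 0.748), and the WT shift was -5.5. Rnf112, a ring finger protein of brain (chr11:61447417-61449416), had 35% and 47% in Mutyh-/- and 50% and 49.5% in Ogg1-/-. Zfpm1, a cofactor of GATA factors (chr8:122336248-122338247), had 50% in both Mutyh-/- libraries and 47% and 43% in Ogg1-/-, and Chd5, a chromatin remodeller of neurons (chr4:152389195-152391194), had 60% and 62% in Mutyh-/- and 55.5% and 59% in Ogg1-/-. All 4 had adjusted p-values of 0.748 to 0.803. Arpc5l, a subunit of the actin nucleating Arp complex (chr2:39014873-39016872), was the only TES gain, with 83.5% and 87% in Mutyh-/- and 85.5% and 78.5% in Ogg1-/-.

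The 17 regions called in opposite directions have a difference that the calls against WT fix, so they were not tested. In CG, 6 were gained in Mutyh-/- and lost in Ogg1-/-, and 8 the other way round. Cstf2, a polyadenylation factor on the X chromosome (chrX:134060176-134074863), had 94% and 88% in Mutyh-/- and 59.5% and 62% in Ogg1-/-. The WT libraries had 58.5% and 64.5% in the Mutyh-/- table and 86.5% and 81.5% in the Ogg1-/- table. WT in one table thus had about the level of the knockout of the other table, and the WT shift was -22.50 points where the knockouts differed by 30.2.

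Col11a1, a fibrillar collagen chain (chr3:114031540-114219326), had 91% and 90.5% in Mutyh-/- and 72% and 57% in Ogg1-/-, with WT at 72% and 60.5% in the Mutyh-/- table and at 78.5% and 96% in the Ogg1-/- table. Phox2a, a homeobox factor of noradrenergic neurons, was called at its TES (chr7:101821727-101823726). It had 66% and 69.5% in Mutyh-/- and 39% and 45.5% in Ogg1-/-, with WT at 43.5% and 50%, then at 63.5% in both libraries. In these 2 regions, as in Cstf2, the WT libraries moved against the knockouts.

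Nup62cl (chrX:140008673-140061568) had 60% and 68.5% in Mutyh-/- and 93% and 96% in Ogg1-/-, and Wapal, a factor that releases cohesin (chr14:34674928-34746983), had 78% and 53.5% in Mutyh-/- and 90% and 100% in Ogg1-/-. Both regions lay lower in Mutyh-/-, and in both the WT mean lay higher in the Mutyh-/- table, by 17.5 to 19.2 points. Nyap2, an adaptor of PI3 kinase in neurons, had 35.5% and 40% at its TSS in Mutyh-/- and 22% and 31% in Ogg1-/-, with WT at 22% in both libraries of the Mutyh-/- table and at 44.5% and 43% in the Ogg1-/- table. Over the 14 CG regions the WT shift was 14.5 to 33 points in size and of the opposite sign to the knockout difference. Its part in these calls was not tested.

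Iqsec3, an Arf exchange factor of inhibitory synapses, differed from these. Its gene body (chr6:121373928-121472678) had CHH levels of 100% and 98.5% in Mutyh-/- and 26% and 44.5% in Ogg1-/-. WT had 80% and 70.5% in the Mutyh-/- table and 83.5% and 59% in the Ogg1-/- table, a shift of 4.0 points against a knockout difference of 64. The knockouts thus lay on both sides of WT in each table. A CHH level near 100% is far above the median of 24.2% in Mutyh-/- over the CHH losses, and the number of cytosines behind it is unknown. The other CHH regions called in opposite directions were Tmem108 (chr9:103483936-103760837), a transmembrane protein of neurons, with 20.5% and 22% in Mutyh-/- and 33% and 34.5% in Ogg1-/-, and Ccdc33 (chr9:58029682-58117823), with 23% and 25.5% in Mutyh-/- and 33% and 32.5% in Ogg1-/-. Their WT means were 22.2 and 23.8 points higher in the Mutyh-/- table.

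**Figure D4:**
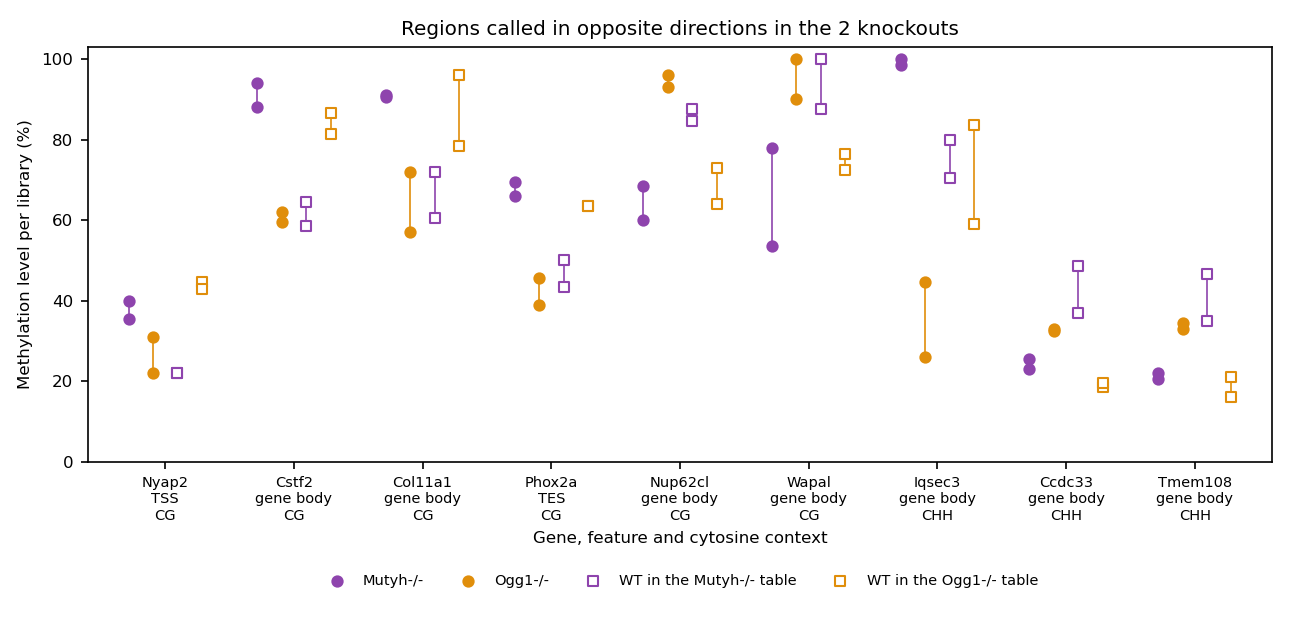
Methylation level per library (y axis, percent) in 9 of the 17 regions called in opposite directions, with the 2 libraries of a group joined by a line. Filled circles are Mutyh-/- (purple) and Ogg1-/- (orange), and open squares are the same 2 WT libraries in the Mutyh-/- table (purple) and in the Ogg1-/- table (orange). In each region but Iqsec3 the WT squares part in the direction opposite to the circles, by 16.8 to 23.8 points.

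In CHH the regions called in 1 direction were mostly gene-body losses with low levels in both knockouts. Col28a1, a collagen chain (chr6:7998808-8191617), had 21% and 18% in Mutyh-/- and 31.5% and 29% in Ogg1-/-, a difference of -10.75 points (SE 2.82, limma adjusted p = 0.948) beside a WT shift of -6.75. Plekhh3 (chr11:101163680-101170302) had 31% and 22% in Mutyh-/- and 33.5% and 46.5% in Ogg1-/-, and 1 WT library stood at 87.5% in its Ogg1-/- table. Pik3c2g, a lipid kinase, was called at its TSS (chr6:139714859-139716858), with 34% and 29.5% in Mutyh-/- and 23% and 19% in Ogg1-/-. Its difference of 10.8 points equalled the WT shift within 0.25 points.

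A shorter gene-body entry of Pik3c2g (chr6:139842445-139968283) had 39% and 21.5% in Mutyh-/- and 17% and 18% in Ogg1-/-, while the longer entry differed by -1.5 points. Arsg, a lysosomal sulfatase, behaved alike, with 44.5% and 25.5% in Mutyh-/- and 20.5% and 24% in Ogg1-/- over chr11:109544711-109572329 and a difference of -0.25 points over its longer entry. The knockout difference thus stood more than 10 points apart between the 2 entries of each gene, and the reason was not tested. Without Mutyh-/- replicate 1 the shorter entries differed by 4.0 points in Pik3c2g and 3.25 in Arsg. After subtraction of WT their differences were -2.75 and -2.0 points. Cdh13, an adhesion molecule of the cadherin family (chr8:118284755-119322448), was the only CHH gain in both, with 30.5% and 33% in Mutyh-/- and 34.5% and 36% in Ogg1-/-.

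The largest mean CHH loss in a gene body was in Slc16a10, an aromatic amino acid transporter (chr10:40034535-40141254), with 30.5% and 20.5% in Mutyh-/- and 23% and 25.5% in Ogg1-/-, and its groups overlapped. Outside gene bodies, Hvcn1, a proton channel (chr5:122209287-122211286), had 29.5% and 32% at its TSS in Mutyh-/- and 26% and 29% in Ogg1-/-. At the TES, Dock5, an exchange factor for Rac (chr14:67750928-67752927), had 24.5% and 28% in Mutyh-/- and 22% and 21% in Ogg1-/-, and Armc5 (chr7:128244101-128246100) had 27% and 28.5% in Mutyh-/- and 34% and 31% in Ogg1-/-. In 9 TSS and 14 TES regions in all, none passed the test, and differences ran between -4.75 and 10.8 points.

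Gene lists were described by their member regions, beside all shared regions, with 0 regions called by limma in every list. The direction of a list against WT rests on the values that chose the members, and gains made up 301 of the 487 CG regions called in 1 direction and 294 of the 402 gene bodies among them. Over all 487, 18.3% lay above and 17.5% below in Mutyh-/- without overlap, and the counts of the lists are a description to be read against these shares. All 8 regions of glutamate receptors were gene-body gains, with 1 above and 1 below without overlap and a median difference of -0.62 points (-1.25 after subtraction of WT), beside 0.5 over all CG regions (0.0 after it). Besides Grm5 they included Grm7, with 86.5% and 84.5% in Mutyh-/- and 99% and 87% in Ogg1-/-, and Grin2a, with 92.5% and 80% in Mutyh-/- and 87.5% and 74.5% in Ogg1-/-. All 22 regions of synaptic scaffolds and adhesion proteins, from 13 genes, were gains, with 4 above, 4 below and a median of -1.88 points, which was -0.38 after subtraction of WT.

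Voltage-gated channels gave 8 CG gains with a median of -1.25 points, which was 0.25 after subtraction of WT. Cacna2d1, an auxiliary calcium channel subunit, had 78.5% in both Mutyh-/- libraries and 77% and 100% in Ogg1-/-. Cadherins and protocadherins gave 15 CG gains from 9 genes with 4 above, 2 below and a median of 5.25 points. The 4 above were all entries of Pcdh15 with the same values. After the WT values of the same pairs were taken off, the median of that list was 0.25 points. Axon guidance genes gave 9 gains and 2 losses with a median of 1.0 points, which turned to -1.5 after subtraction of WT. Among them Epha6, a guidance receptor, had 81% and 95% in Mutyh-/- and 76.5% and 80.5% in Ogg1-/-. Its difference was -4.0 points after that subtraction.

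All 6 CG regions of developmental transcription factors, both of Wnt ligands and both of GABA receptor genes were losses, as were 186 of the 487 CG regions called in 1 direction. The 6 regions of developmental factors had a median difference of 3.38 points with 2 above without overlap, and the median was 0.12 points after subtraction of WT. Lhx2, a LIM homeobox factor of the hippocampal primordium (chr2:38340281-38368737), had 38% and 39.5% in Mutyh-/- and 32% and 31% in Ogg1-/-, with a WT shift of 8.25 points that exceeded the difference of 7.25. A shorter Lhx2 entry differed by 1.0 point. Gabra5, a GABA receptor subunit enriched in hippocampus, had 35.5% and 41.5% at its TSS in Mutyh-/- and 36% and 33.5% in Ogg1-/-, and Gabbr1, a GABA type B subunit, had 43% and 25% in its gene body in Mutyh-/- and 39.5% and 26% in Ogg1-/-. Wnt7b had 55.5% and 41.5% in Mutyh-/- and 53.5% and 62.5% in Ogg1-/-, with a difference of changes of 0.0.

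Kdm6b, a demethylase of the Polycomb mark on histone H3, was the only Polycomb or Trithorax region in CG, with TES levels of 41.5% and 40% in Mutyh-/- and 42.5% and 52% in Ogg1-/-. Cdkn1c, an imprinted cell cycle inhibitor, had the same WT mean in both tables. It had TSS levels of 40% and 38.5% in Mutyh-/- and 40% and 42% in Ogg1-/-. Its difference was -1.75 points (95% interval -9.17 to 5.67). Plasticity and CREB signalling gave 8 CG regions with a median of 0.0 points (-1.0 after subtraction of WT), and extracellular matrix 2 regions, Col11a1 and Col4a5. Syt1, a calcium sensor of vesicle release, was the only neuron marker in CG, and DNA methylation enzymes, immediate early genes and markers of astrocytes, oligodendrocytes and microglia had no shared region in either context. A change in the mix of cell types was not tested.

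In CHH the lists were losses in both knockouts, apart from Cdh13, as were 748 of the 749 CHH regions called in 1 direction. Extracellular matrix genes were the largest list, with 14 regions from 13 genes, 5 above, 2 below and a median of 1.62 points beside 1.0 over all CHH regions, of which 21.5% lay above and 7.74% below. After subtraction of WT the median of the list turned to -1.25 points, beside -0.5 over all CHH regions. Col12a1 had 47% and 21.5% in Mutyh-/- and 19% and 31% in Ogg1-/-, and Col16a1 had 25.5% and 20.5% in Mutyh-/- and 31% and 29% in Ogg1-/-. Celsr1, a planar polarity cadherin (chr15:85899758-86032777), had 40.5% and 26% in Mutyh-/- and 20.5% and 23% in Ogg1-/-, with a difference of 11.5 points beside a WT shift of 18.8. Pcdh10, a protocadherin, had 23.5% and 19.5% in Mutyh-/- and 32% and 26.5% in Ogg1-/-, and its difference of changes, -11.50 points, was the most negative of the 749 CHH regions.

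Axon guidance genes gave 10 CHH regions with a median of 0.88 points, which turned to -0.625 after subtraction of WT. Robo2, a receptor for Slit proteins, had 23% and 21% in Mutyh-/- and 17.5% and 15.5% in Ogg1-/-, with a difference of 5.5 points and a difference of changes of -0.25. Adcy5, an adenylyl cyclase, had 30% and 26.5% in Mutyh-/- and 22.5% and 21.5% in Ogg1-/-, and Grb10, an imprinted adaptor of insulin signalling, had 23.5% and 31.5% in Mutyh-/- and 21.5% and 19.5% in Ogg1-/-. These 3 genes lay higher in Mutyh-/- without overlap on the deposited scale and lower by 0.25 to 2.5 points once WT was taken off. Repair genes in CHH were Fancc, of the Fanconi anaemia pathway, and Rad51b, a recombination factor, with differences of 2.75 and 0.75 points. After subtraction of WT the difference was -8.75 points in Rad51b, and 0 and -2.25 points in the entries of Fancc.

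**Figure D5:**
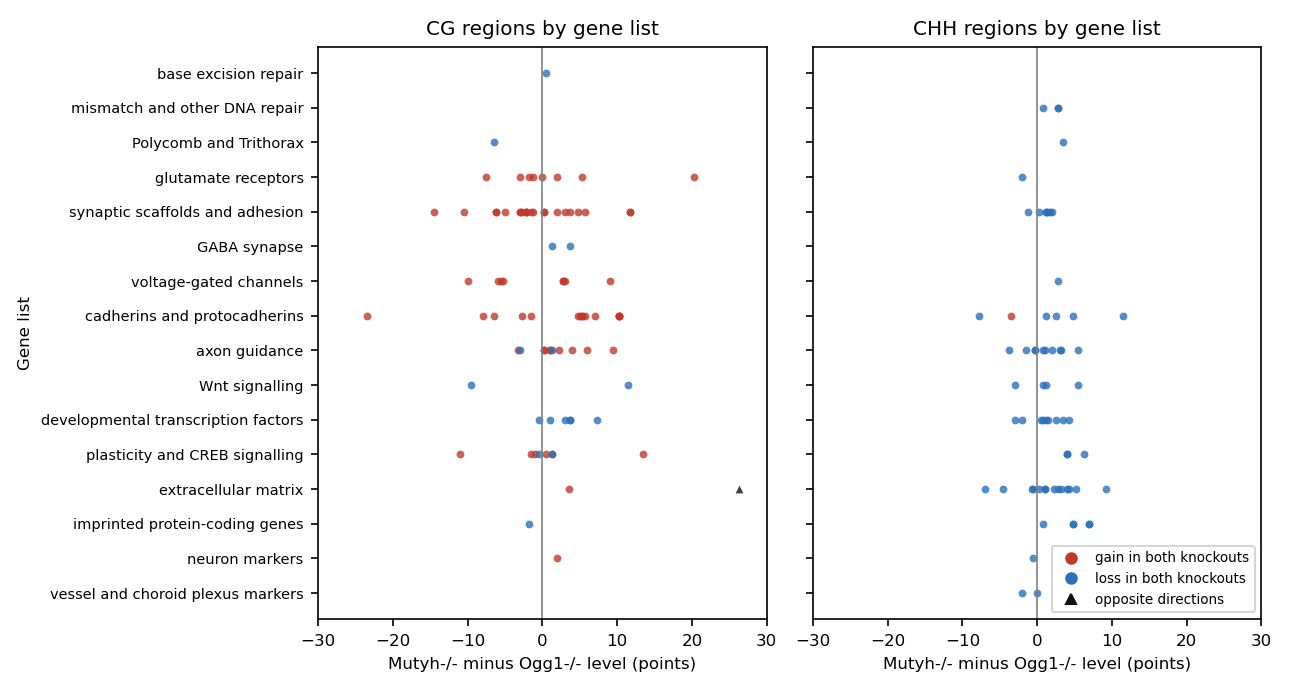
Difference Mutyh-/- minus Ogg1-/- (x axis, percentage points) of each member region, by gene list (y axis), for CG (left) and CHH (right). Red points are gains in both knockouts, blue points losses in both and the triangle is Col11a1, called in opposite directions. Glutamate receptor, scaffold, channel and cadherin points are CG gains, developmental factor points are losses, and most lists spread to both sides of 0.

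Chromosome X held 88 of the 487 CG regions called in 1 direction. Of these 78 were gains, beside 223 of 399 on the autosomes. Median levels on X were 91% in Mutyh-/- and 90% in Ogg1-/-. On the autosomes, with a smaller share of gains, they were 74.5% and 72%. The median difference was 0.62 points on X, beside 0.25 on the autosomes. In CHH chromosome X held 5 regions.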

How the data were processed

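Whole-genome bisulfite libraries were made from hippocampal DNA of 4 genotypes with 2 libraries each. Per the labels, alignment used Bismark 0.22.3 and the GRCm38 build. The authors dropped cytosines covered fewer than 4 times and called regions with HMST-Seq-Analyzer per library pair and cytosine context. The deposited methylation medians are a score between 1 and 2, read here as 1 plus the methylated fraction, with a column for each library of each pair. Subtracting 1 and multiplying by 100 gave a level in percent, and the 2 pairs of a library were averaged. The deposited relative ratio and p-value columns hold the authors' own comparisons against WT and were not used. Direction and ratios were recomputed from the medians. The number of per-sample value columns left unused was 0.

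Tables were joined on location, feature and gene. Starts were made 1-based and the chromosome coded after 19 was written as X. Symbols turned into dates were restored by position. Levels of Mutyh-/- and Ogg1-/- were compared with limma 3.58.1 in R 4.3.3 over the regions called in 1 direction, with Benjamini-Hochberg adjustment at 0.05, after testing on simulated data. The members and the 21 gene lists were chosen with earlier results of these data known. Named regions were those called in opposite directions (in CG the 6 with the largest difference), the 2 largest differences each way per feature without overlap, the largest mean change from WT per feature and direction, and up to 3 regions per gene list. Predicted, RIKEN and small RNA genes were passed over outside the lists. The alternatives tried were a replicate block, other scales, subtraction of WT, single WT pairs, repeated entries counted once and leaving out each library. A few regions that this rule names are not reported here.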

Additional observations from a re-analysis of the deposited data

Results flagged for a closer look

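Listed here are the regions in which all Mutyh-/- library pairs moved one way against WT and all Ogg1-/- pairs the other way. The calls fix the sign of the difference of changes from WT, and no difference was tested. Several differences between the knockouts lay inside the range of the regions called in 1 direction. That range was -23.5 to 20.25 points in CG and -13.5 to 12.75 in CHH. In CG the difference Mutyh-/- minus Ogg1-/- was positive in Nyap2 (11.2 points), Tmem151a (20.8), Cdk5r1 (23), Phox2a (25.5), Col11a1 (26.2) and Cstf2 (30.2). It was negative in 8 regions, among them Skint5 (-11.75 points), Tmem140 (-19.00), Gyk (-22.75), Gprc5b (-23.75), Myo1d (-25.00), Wapal (-29.25) and Nup62cl (-30.25). In CHH it was 64 points in Iqsec3, -8.5 in Ccdc33 and -12.50 in Tmem108. Iqsec3 alone among the 17 regions had a WT shift under 14.5 points between the tables. Tmem151a, Cdk5r1, Skint5, Tmem140, Gyk, Gprc5b and Myo1d are named here because of their values.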

How the results depend on the processing

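The count of regions that differed between Mutyh-/- and Ogg1-/- was 0 in CG and 0 in CHH under every limma fit that was run, including the replicate block, where 17 CG and 18 CHH regions had an unadjusted p under 0.05. Same-numbered libraries did not deviate together across these regions (r = -0.01 in CG and 0.01 in CHH). This cannot settle whether they share a litter, batch or day, which the labels do not say. Leaving out each library in turn also gave 0 calls. The alternative with a deposited p of at most 0.01 was not run, since those columns hold the authors' comparisons, and a relative ratio of at least 0.15 in every pair left 0 regions. Counts without overlap changed by over 1.5 times. Over the 487 CG regions the counts were 89 with Mutyh-/- above and 85 below as deposited and 41 and 33 after subtraction of WT, and among the 175 with a WT shift of at most 2 points they were 9 and 18. Over the 749 CHH regions they were 161 and 58 as deposited and 86 and 146 after subtraction of WT, and among the 235 with a small shift 14 and 9. Subtraction of WT gave median differences of 0.5 points over CG gains, -0.38 over CG losses and -0.5 over CHH losses. Leaving out 1 library put them between 0.25 and 2.0, between -0.75 and 0.5, and between 0.75 and 1.25. Subtraction turned the sign in 14 of 47 named CG regions and in 26 of 47 named CHH regions. Depth per region is unknown, so no counting error could be given.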

Other observations

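A group of 28 genes held shared regions in both contexts. In 24 of them both regions were gene bodies, and of these 19 gained CG methylation in both knockouts while all 24 lost CHH methylation. These counts are to be read against all shared gene bodies called in 1 direction. Of those, 294 of 402 in CG were gains and 725 of 726 in CHH were losses. The genes held in both contexts are described here without a test. They included Tmem132d, with a difference Mutyh-/- minus Ogg1-/- of -15.75 points in CG and 8.25 in CHH, Rarb, a retinoic acid receptor, with 11.8 and 3.0 points, Chsy3, a chondroitin synthase, with 10.2 and 7.5 points, and Kctd1, with 9.0 and 9.5 points, which lost CG methylation. Myo1d, an unconventional myosin (chr11:80483127-80779025), was called in opposite directions in CG, with 55% and 63% in Mutyh-/- and 91% and 77% in Ogg1-/-. In CHH it was lost in both, with 30.5% and 31.5% in Mutyh-/- and 20% and 20.5% in Ogg1-/-, and this difference of 10.8 points had the smallest limma p of the CHH regions (adjusted p = 0.948) beside a WT shift of 11 points. These genes were picked after their values were seen.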
